A study of Homo sapiens with 3 samples.

Results

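The 10 genes described are DUSP4, DUSP6, SPRY1, SPRY2, SPRY4, SPRED1, SPRED2, ETV4, ETV5 and PHLDA1. Most encode feedback brakes of ERK signalling, ETV4 and ETV5 encode ETS factors induced downstream of it, and PHLDA1 belongs to published MEK output signatures. The 10 genes were taken by gene symbol from a table of 27574 genes, and all 10 had a row in it. The table holds RNA sequencing read counts for 3 libraries of H82R cells, called here replicates 1, 2 and 3. The H82 line is a long-established culture of human small cell lung cancer, and the labels give the 3 libraries 1 treatment, etoposide plus cisplatin, with no untreated or parental sample among the samples described here. What can be read from them is how high each gene stood and how far the libraries differed, not a response to the drugs. Whether separate cultures were used is not stated in the labels, so p-values reflect the spread of these samples alone, and that spread may be technical. In bulk RNA, fewer expressing cells and less RNA per cell cannot be told apart.

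ERK is the last kinase of the cascade that runs from receptor tyrosine kinases through RAS, RAF and MEK. Active ERK enters the nucleus and raises transcription of its own inhibitors, so the mRNA of DUSP, Sprouty and PEA3-type ETS genes is widely read as a gauge of ERK output. Activating RAS mutations are typical of lung adenocarcinoma and rare in small cell carcinoma, a neuroendocrine tumour.

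The starts of 5 genes are shown first because they belong to the genes at the ends of the range described next: DUSP6, SPRY2 and SPRY4 lay near the limit of counting, whereas SPRED1 and SPRED2 had the most counts. Each run is the 250 bases before the annotated RefSeq start (GRCh38.p14), 5′ to 3′ on the gene's strand. Capitals mark CCGGAA, a form of the letters bound by ETS factors, on either strand. They also mark the octamers TGAATGAA, TGAATGGA, TCAATGAA and TCAATGGA, bound by the repressor CIC, on either strand. Shorter or other letters that ETS factors can bind were not marked. The runs lie at chr12:89352502-89352751 (minus strand), chr13:80341127-80341376 (minus), chr5:142324248-142324497 (minus), chr15:38252586-38252835 (plus) and chr2:65432600-65432849 (minus), in the order printed.
DUSP6: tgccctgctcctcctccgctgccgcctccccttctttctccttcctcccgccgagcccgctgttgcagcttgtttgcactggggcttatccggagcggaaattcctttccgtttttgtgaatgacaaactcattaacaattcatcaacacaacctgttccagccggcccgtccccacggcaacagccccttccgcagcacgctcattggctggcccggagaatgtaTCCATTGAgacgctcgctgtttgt
SPRY2: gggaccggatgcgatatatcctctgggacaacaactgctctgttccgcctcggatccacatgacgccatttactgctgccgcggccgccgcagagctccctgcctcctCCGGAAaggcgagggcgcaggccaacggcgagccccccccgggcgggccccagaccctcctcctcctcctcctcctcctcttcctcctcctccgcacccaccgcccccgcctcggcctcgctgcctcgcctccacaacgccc
SPRY4: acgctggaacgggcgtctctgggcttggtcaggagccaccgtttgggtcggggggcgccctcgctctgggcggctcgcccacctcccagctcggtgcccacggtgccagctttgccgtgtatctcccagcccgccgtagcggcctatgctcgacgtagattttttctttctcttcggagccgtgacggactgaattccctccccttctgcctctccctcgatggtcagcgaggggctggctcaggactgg
SPRED1: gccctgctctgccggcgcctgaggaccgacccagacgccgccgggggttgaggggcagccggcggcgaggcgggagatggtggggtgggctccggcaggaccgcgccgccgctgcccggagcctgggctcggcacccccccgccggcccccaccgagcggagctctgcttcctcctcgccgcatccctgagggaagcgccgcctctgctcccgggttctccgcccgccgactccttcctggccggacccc
SPRED2: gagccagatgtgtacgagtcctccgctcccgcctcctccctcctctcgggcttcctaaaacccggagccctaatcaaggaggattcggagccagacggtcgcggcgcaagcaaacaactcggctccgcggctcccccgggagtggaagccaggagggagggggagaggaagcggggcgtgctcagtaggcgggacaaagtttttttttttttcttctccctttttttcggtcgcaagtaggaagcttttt

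RefSeq promoter windows, which run from 250 bases before to 50 after a start, were on hand for 7 of the 10 genes, as 11 windows. SPRY2 had 3 windows, and the first is printed. SPRY1 and SPRED2 had 2 each. The DUSP6 window held the CIC octamer letters TCAATGGA on the opposite strand at 2 places, starting at position -24 and at position 2 counted from the start, and 3.77% of all 35116 windows held any of the 4 spellings. CCGGAA occurred in 3 of the 11 windows, those of SPRY2 (first window), SPRY1 (second window) and PHLDA1, against 17.2% of all windows. The longer ETS letters CCGGAAGT, which contain CCGGAA, occurred in none of the 11 and in 4.14% of all windows. The AP-1 letters TGACTCA were found in the second SPRED2 window (4.95% of all windows), and the cyclic AMP response letters TGACGTCA in none (1.85%). The GC content of the 11 windows ran from 39.3% to 76.3%, with a median over all windows of 58.7%. These matches describe letters in a window and not binding.

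Replicates 1, 2 and 3 held 25013265, 42610181 and 23868201 counts. Levels are given as CPM, read counts scaled by each library's TMM-adjusted total, and a count of 0 allows up to 0.121, 0.0702 and 0.125 CPM (3 counts, counting error only). Detected genes are the 14612 that reached 10 counts in all 3 libraries. The median detected gene stood at 25.2 CPM, or 5.59 CPM per kb of exon. All 8 small cell neuroendocrine markers were detected, and limma called 6 above the median gene. Of markers of other cells, 1 of 5 fibroblast, 3 of 5 leukocyte, 2 of 4 endothelial and 1 of 5 airway epithelial genes were detected, none of them called above the median gene. PTPRC had 6, 10 and 7 counts, and KRT5, SCGB1A1 and SFTPC had none.

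The 10 genes spanned a wide range in H82R cells, from SPRED2 with at least 1007 counts in every library to SPRY4 with at most 10. Of the 10 genes, 5 were detected (DUSP4, SPRY1, SPRED1, SPRED2 and PHLDA1), a share close to the 53.0% of all 27574 genes that were. DUSP6, SPRY2, SPRY4, ETV4 and ETV5 each fell short of 10 counts in at least 1 library. Tested by limma in a one-sample comparison with the median detected gene, SPRED2 was called above it, and DUSP4, SPRY1, SPRED1 and PHLDA1 were called below it. Among all detected genes 45.9% were called above and 46.1% below, so a call by itself sets no gene apart. How the 10 genes compared with all genes, detected or not, depended on the measure and on the set of genes. Their median was 1.40 CPM against 0.868 over all 27574 genes. Per kb of exon it was 0.195 CPM against 1.73 over the 20072 genes with a known exon length. The part of length alone in this reversal was not tested. SPRED1 and SPRED2 together held 76.3%, 77.7% and 82.7% of the 2273, 3412 and 1810 counts that fell on the 10 genes in replicates 1, 2 and 3, and the 5 undetected genes together held 48, 109 and 35 counts.

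**Figure D1:**
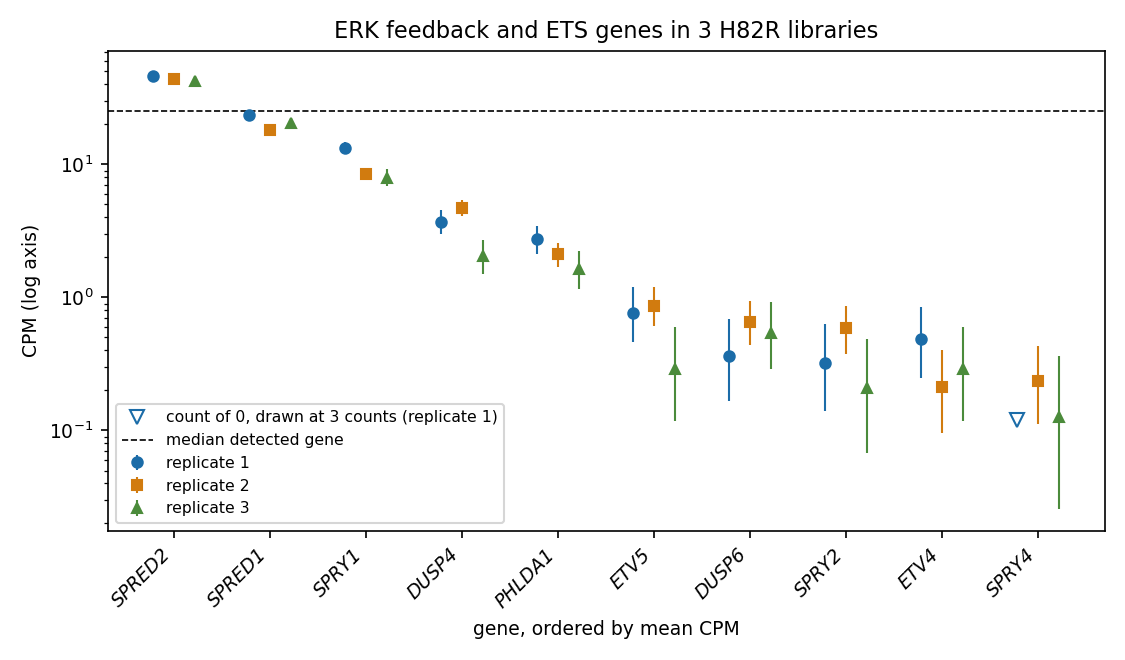
CPM (log axis) of the 10 genes in each of the 3 libraries, ordered by mean CPM; bars are exact 95% Poisson intervals, the open triangle stands for a count of 0 and the dashed line for the median detected gene at 25.2 CPM. SPRED2 is the 1 gene with all 3 libraries above the line, and the 5 genes on the right lie below 1 CPM in every library.

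DUSP4 and DUSP6 encode dual-specificity phosphatases that remove the activating phosphates from ERK, DUSP4 in the nucleus and DUSP6 in the cytoplasm. DUSP4 (chromosome 8, 29333064 to 29350668 on GRCh38) had 92, 201 and 49 counts, or 3.70, 4.70 and 2.04 CPM. Replicate 3 was the lowest, and the highest library was 2.30 times the lowest. DUSP4 lay below the median detected gene, at a log2 distance of -2.90 ± 0.23 (SE, limma adjusted p = 4.15e-06).

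DUSP6 (chromosome 12, 89347232 to 89353271) had 9, 28 and 13 counts, or 0.362, 0.655 and 0.542 CPM. The exact 95% Poisson intervals were 0.166 to 0.688, 0.435 to 0.947 and 0.289 to 0.928 CPM, and all 3 overlapped. In GENCODE an antisense gene, AC024909.2, covers 40.5% of its exon bases. That antisense gene has no row of its own name in the table and whether counting used strand is not given in the sources used here, so the few DUSP6 counts may include reads of either gene.

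Per kb of exon, DUSP6 stood at 0.153 (95% exact binomial interval 0.0679 to 0.304), 0.218 (0.141 to 0.325) and 0.416 (0.207 to 0.778) times DUSP4 in replicates 1, 2 and 3. It was lower in 3 of 3 libraries. An exact sign-flip test over 3 libraries cannot give a p below 0.25, which was the p for every one of the 6 paralog pairs except ETV5 and ETV4 (adjusted p = 0.30 over the 6 pairs).

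The family of 10 MAP kinase phosphatases places this pair near its lower end. Per kb of exon, DUSP10 (12.9 ± 1.81 CPM per kb, SD, n = 3) and DUSP16 (12.1 ± 2.40), which mainly act on the stress kinases JNK and p38, were the highest, and their libraries overlapped. DUSP5, a nuclear ERK phosphatase that is itself induced by ERK, stood at 10.3 ± 1.06. DUSP9, DUSP1 and DUSP7 followed at 7.48 ± 1.57, 7 ± 1.63 and 5.34 ± 1.09. DUSP8 (0.878 ± 0.420) and DUSP4 (0.480 ± 0.185) had overlapping ranges, below all libraries of the first 6 genes. DUSP6 (0.112 ± 0.0319) lay below every library of DUSP4, and DUSP2 had 0, 2 and 0 counts. All libraries of DUSP5, DUSP7 and DUSP9, whose products also act on ERK, thus lay above those of DUSP4 and DUSP6. In CPM not divided by length, limma's test did not separate these 3 from the median gene (adjusted p = 0.381, 0.0894 and 0.0536). Per kb of exon, every library of DUSP5 and DUSP9 lay above the median detected gene at 5.59 CPM per kb. Those of DUSP7 fell on both sides of it.

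Sprouty proteins are membrane-associated inhibitors that act between receptor and RAF, and the 3 measured here differed widely. SPRY1 (chromosome 4, 123396795 to 123403760) had 330, 360 and 191 counts, or 13.3, 8.42 and 7.97 CPM. Replicate 1 stood above the other libraries, which were close to each other. SPRY1 lay below the median gene, at a log2 distance of -1.37 ± 0.16 (SE, limma adjusted p = 5.33e-05). Against the lower median of all genes with at least 1 count it lay above, at 0.92 (adjusted p = 1.83e-05). SPRY2 (chromosome 13, 80335976 to 80340951) had 8, 25 and 5 counts, or 0.322, 0.585 and 0.209 CPM. SPRY4 (chromosome 5, 142310427 to 142326455) had 0, 10 and 3 counts, the lowest of the 10 genes. Its 10 counts in the deepest library correspond to 0.234 CPM (95% Poisson interval 0.112 to 0.430). The 0 in replicate 1 allows up to 0.121 CPM by the limit of 3 counts, and up to 0.149 CPM by the same Poisson interval.

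SPRY1 was the main Sprouty transcript in every library. Per kb of exon, SPRY2 was 0.0316 (95% exact binomial interval 0.0135 to 0.0630), 0.0906 (0.0578 to 0.136) and 0.0341 (0.0110 to 0.0811) times SPRY1. Against SPRY4, SPRY1 was at least 182-fold higher in replicate 1, taking the count of 0 as 3 (lower exact 95% limit 147), and 59.6 (32.1 to 125) and 105 (35.5 to 516) times higher in replicates 2 and 3. SPRY2 exceeded SPRY4 at least 5.76-fold in replicate 1 (lower limit 3.69) and 5.40 times in replicate 2 (2.51 to 12.6). In replicate 3 the interval of that ratio, 0.701 to 23.2, included 1. SPRY3, the remaining family gene, had no count in any library.

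SPRED1 and SPRED2 are Sprouty-related proteins that bring the RAS inactivator neurofibromin to the membrane, and they had the most counts of the 10 genes. SPRED2 (chromosome 2, 65310851 to 65432637) had 1150, 1881 and 1007 counts, or 46.3, 44.0 and 42.0 CPM. The 3 libraries lay within 1.10 times of each other, the narrowest spread of the 10 genes. SPRED2 lay 0.81 ± 0.08 (SE) above the median gene on the log2 scale (limma adjusted p = 1.34e-05), and per kb of exon it exceeded 62.7% of detected genes.

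SPRED1 (chromosome 15, 38252326 to 38357249) had 585, 771 and 489 counts, or 23.55, 18.04 and 20.41 CPM. In CPM it lay at a log2 distance of -0.29 ± 0.11 from the median gene (SE, limma adjusted p = 0.0308). This call was lost without replicate 1 (adjusted p = 0.0709), without replicate 2 (0.136) and without replicate 3 (0.228). Per kb of exon the log2 distance was -1.15, and against the median of all genes with at least 1 count it turned to 2.005. Per kb of exon SPRED1 stood at 0.317 (0.287 to 0.351), 0.256 (0.235 to 0.278) and 0.303 (0.271 to 0.338) times SPRED2, lower in 3 of 3 libraries. SPRED3, the third SPRED gene, had 19, 70 and 17 counts and 0.177 ± 0.0888 CPM per kb. NF1, which encodes neurofibromin, stood at 289 ± 9.33 CPM, the highest of the other brakes listed.

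**Figure D2:**
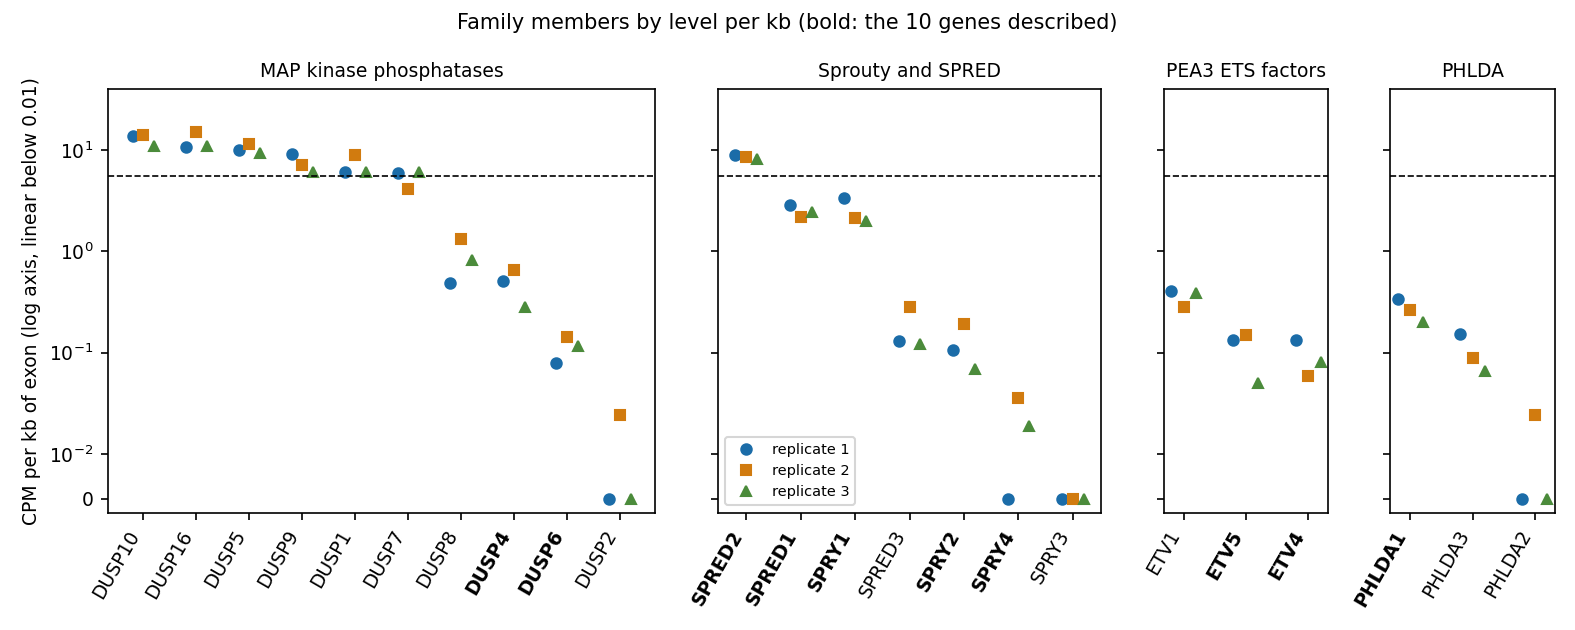
CPM per kb of exon in each library (log axis, linear below 0.01) for the MAP kinase phosphatase, Sprouty and SPRED, PEA3 and PHLDA families, ordered by mean; the dashed line is the median detected gene at 5.59 CPM per kb. SPRED2 is the 1 bold gene above the line, while DUSP6, SPRY2, SPRY4, ETV4 and ETV5 stay below 0.2 in every library.

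ETV4 and ETV5 are ETS transcription factors of the PEA3 group, induced downstream of ERK and FGF receptors, and both were below 1 CPM. ETV4 (chromosome 17, 43527844 to 43579620) had 12, 9 and 7 counts, or 0.483, 0.211 and 0.292 CPM. DHX8, an RNA helicase gene on the opposite strand with 3378, 5918 and 3759 counts, overlaps 68 of the 3607 exon bases of ETV4, and its part in the ETV4 counts was not tested. ETV5 (chromosome 3, 186046308 to 186110318) had 19, 37 and 7 counts, or 0.765, 0.866 and 0.292 CPM, with replicate 3 lowest. It shares 164 of 5802 exon bases with DGKG, which had 2, 11 and 0 counts. Per kb of exon the ETV5 to ETV4 ratio was 0.984 (95% exact binomial interval 0.454 to 2.22), 2.56 (1.21 to 6.02) and 0.622 (0.186 to 2.08), so their order was not settled (exact sign-flip p = 1). ETV1, the other PEA3 gene, had 98, 116 and 90 counts. At 0.361 ± 0.0689 CPM per kb (SD, n = 3) all its libraries lay above those of ETV5 (0.110 ± 0.0528) and ETV4 (0.0911 ± 0.0388).

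PHLDA1, which encodes a pleckstrin homology-like protein and belongs to published MEK output signatures, lies on chromosome 12 from 76025447 to 76033932. It had 68, 90 and 39 counts, or 2.74, 2.11 and 1.63 CPM. It lay at a log2 distance of -3.53 ± 0.19 (SE) from the median gene (limma adjusted p = 3.83e-07), the lowest of the 5 detected genes. The antisense genes AC011611.3 and AC011611.4 cover 6.85% and 9.65% of its exon bases and have no row of their own name in the table. Its relatives PHLDA3 (12, 12 and 5 counts) and PHLDA2 (0, 1 and 0 counts) were lower per kb of exon in every library.

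Ordered by CPM per kb of exon, SPRED2 (8.56 ± 0.415, SD, n = 3) came first, with all libraries above those of SPRED1 (2.50 ± 0.335) and SPRY1 (2.50 ± 0.743), whose ranges overlapped. DUSP4 (0.480 ± 0.185) and PHLDA1 (0.267 ± 0.0690) followed in overlapping ranges, below every library of SPRY1. SPRY2 (0.122 ± 0.0636), DUSP6 (0.112 ± 0.0319), ETV5 (0.110 ± 0.0528) and ETV4 (0.0911 ± 0.0388) overlapped in turn and could not be ordered. SPRY4 lay below all of them. No 50-base stretch of these transcripts was shared between any of the 10 genes, so a perfectly matching read of that length would fit only 1 of them. Stretches shared with other genes made up 37.1% for DUSP6 and 14.8% for PHLDA1, led by their antisense genes, and at most 1.96% for the other 8.

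**Figure D3:**
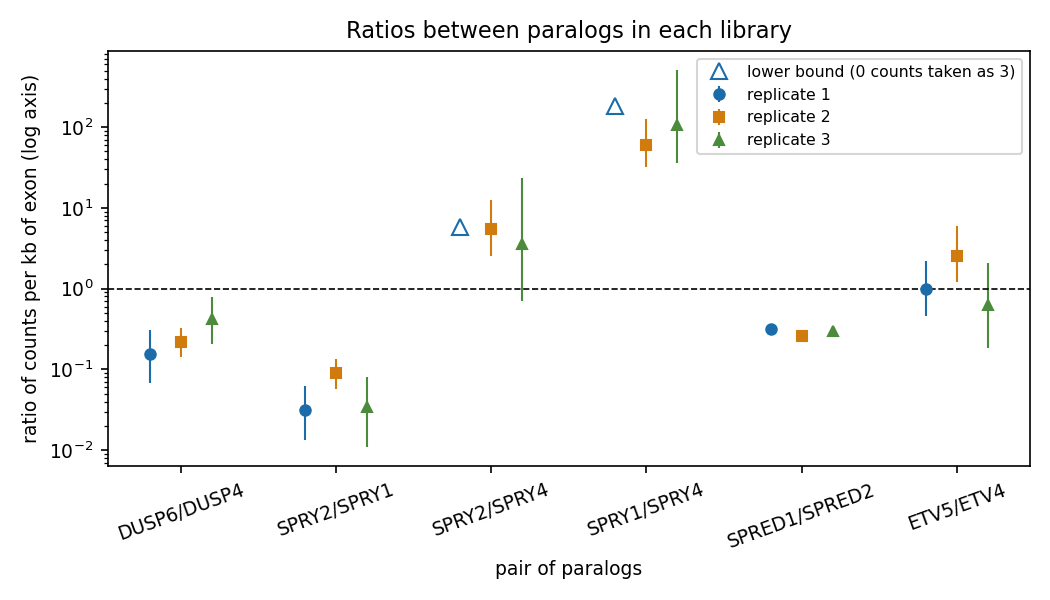
Ratio of counts per kb of exon (log axis) for 6 pairs of paralogs in each library, with exact 95% binomial intervals; open triangles are lower bounds where the denominator had a count of 0. DUSP6/DUSP4, SPRY2/SPRY1 and SPRED1/SPRED2 lie below 1 in every library, SPRY1/SPRY4 lies above it, and ETV5/ETV4 falls on both sides.

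A chi-square test of homogeneity asked whether the libraries differed by more than counting error. It called 4 of the 5 detected genes, where 68.7% of all detected genes were called: SPRY1 (chi-square 47.8, adjusted p = 1.80e-10), DUSP4 (29.1, adjusted p = 1.45e-06), SPRED1 (23.8, adjusted p = 1.81e-05) and PHLDA1 (7.06, adjusted p = 0.0432). SPRED2 was not called (5.07, adjusted p = 0.106). Without replicate 1, DUSP4 was the 1 gene still called; without replicate 3, the calls of DUSP4 (adjusted p = 0.100) and PHLDA1 (0.164) were lost. PHLDA1 also missed the threshold with plain totals (0.0501) and when genes with at least 1 count were kept (0.0601). In that last run ETV5 was called (adjusted p = 0.0469).

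The genes that carry the signal to ERK were well expressed in the same libraries. Over all genes 53.0% were detected, and of those 45.9% were called above the median gene and 46.1% below it. Of 26 genes of the RAS to ERK cascade, 24 were detected, 19 were called above the median gene, 3 below it and 2 neither. The phosphatase gene PTPN11, which couples receptors to RAS (245 ± 13.9 CPM, SD, n = 3), and the ERK-activated kinase gene RPS6KA3 (240 ± 19.1 CPM) were the highest, and RRAS (3.19 ± 0.945 CPM) was the lowest detected. KSR2 and RPS6KA2 were not detected. The MEK genes MAP2K1 (48.1 ± 2.01 CPM) and MAP2K2 (173 ± 11.7 CPM), named after their values were seen, were both above the median gene. The median of the cascade list was 9.38 CPM per kb of exon, against 0.195 for the 10 genes described, of which 5 were detected. Over all genes with a known exon length it was 1.73. Any link between the levels of the cascade and of the 10 genes was not tested.

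Upstream receptor kinases were mixed. Of 15, 10 were detected, and 5 (NTRK2, EGFR, RET, KIT and NTRK3) were not. Limma called 4 above the median gene and 6 below it, against 45.9% and 46.1% of all detected genes. IGF1R (269 ± 9.52 CPM) and INSR (249 ± 34.1 CPM), the receptors for insulin-like growth factors and insulin, led the list.

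Among 18 other brakes on the pathway, 16 were detected, and DUSP2 and SPRY3 were not. Limma called 8 of the 16 above the median gene and 4 below it, and did not separate 4. The shares over all detected genes were 45.9% above and 46.1% below. After NF1, the ubiquitin ligase gene CBL (114 ± 10.3 CPM) was highest, and SPRED3 (1.04 ± 0.521 CPM) was the lowest detected. The list median was 6.55 CPM per kb of exon. The list includes DUSP10 and DUSP16, both called above, whose products mainly act on JNK and p38 rather than ERK.

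Of 18 other ETS genes, 14 were detected, and SPDEF, SPI1, EHF and FLI1 were not. Limma called 7 of the 14 above the median gene and 6 below it, and did not separate 1. These shares lay close to the 45.9% and 46.1% of all detected genes. GABPA (92.0 ± 26.2 CPM), a widely expressed factor of nuclear-encoded mitochondrial genes, and ELK4 (74.4 ± 0.753 CPM), which partners serum response factor, were the highest, and ERG (0.677 ± 0.181 CPM) the lowest detected. The list median was 3.63 CPM per kb of exon.

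Regulators of the PEA3 factors were expressed. Of 7 genes, 6 were called above the median gene and ATXN1 (5.94 ± 0.931 CPM) below it. The count above was 5 without replicate 1, 5 without replicate 2, and 4 with a filter of at least 1 CPM in every library. The shares over all detected genes were 45.9% above and 46.1% below. DDB1 (418 ± 8.22 CPM), part of the ubiquitin ligase that degrades ETV proteins, was highest. CIC, the repressor of ETV4, ETV5, DUSP6 and SPRY4 that ERK signalling relieves, stood at 109 ± 11.3 CPM. The ligase gene COP1 carries its older name RFWD2 in the table.

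The other ERK output genes ran from very high to near 0. Of 10 listed genes, 5 were detected, close to the 53.0% of all genes. Limma called 1 above the median gene and 3 below it, against 45.9% and 46.1% of all detected genes, and 1 was not distinguished. The counts became 2 above and 5 below without replicate 3, and 2 above and 8 below when genes with at least 1 count were kept. In that last run 48.1% of all 22026 genes were called above and 48.1% below. FOS, PHLDA3, IER3, CCND1 and PHLDA2 were not detected. MYC, which has many inputs besides ERK, was the highest at 792 ± 149 CPM. The ephrin receptor gene EPHA2 stood at 26.7 ± 5.30 CPM, and the immediate early gene EGR1 (0.817 ± 0.347 CPM) was the lowest detected. The cyclin gene CCND1 had 0, 3 and 0 counts. The list median was 0.865 CPM, against 0.868 over all genes, and 0.291 CPM per kb of exon, against 1.73 over all genes with a length. Of the other lists, keeping genes with at least 1 count raised the calls above the then lower median to 13 of the other brakes, 11 of the other ETS genes and 7 of the receptors, and left 0 ETS regulators below it. A filter of at least 1 CPM in every library, with its higher median, put 5 cascade genes and 1 output gene below.

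**Figure D4:**
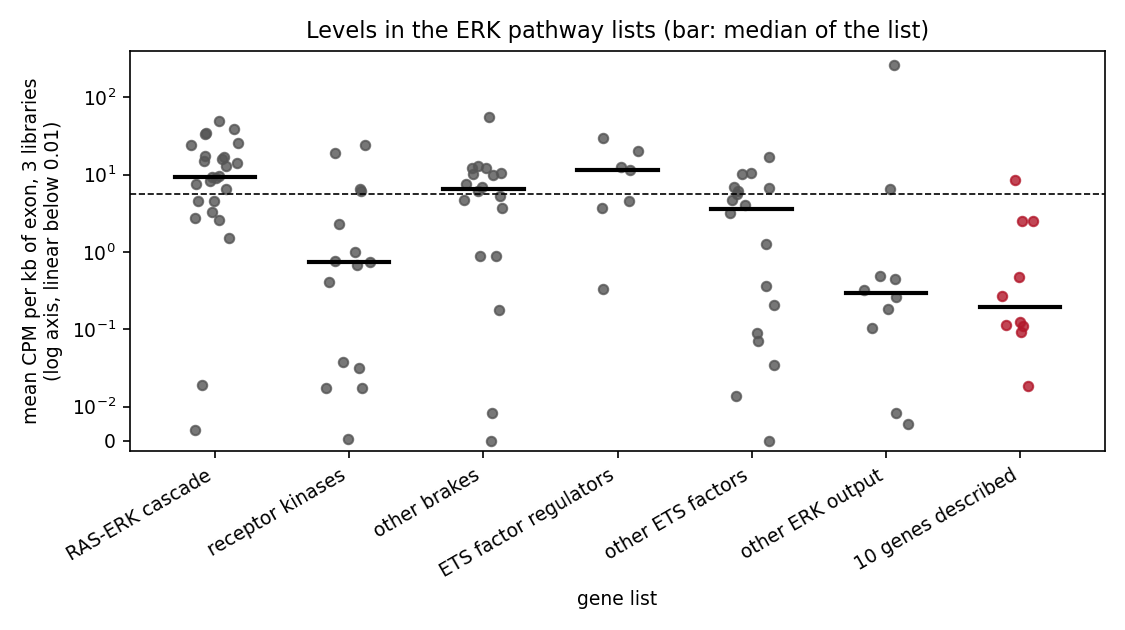
Mean CPM per kb of exon over 3 libraries (log axis, linear below 0.01) for each gene of 6 pathway lists and for the 10 genes described (red); thick bars are list medians and the dashed line is the median detected gene at 5.59. The bars of the 10 genes (0.195) and of the other ERK output genes (0.291) lie lowest, and that of the RAS-ERK cascade stands at 9.38.

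By the root mean square difference of log2 CPM per kb of exon over the 3 libraries, the listed gene nearest in level was SHC1 for SPRED2 (0.10), FGFR2 for SPRY1 (0.14), BRAF for SPRED1 (0.16), EGR1 for PHLDA1 (0.21) and FGFR1 for DUSP4 (0.41). With 3 libraries of 1 group, no correlation between genes was computed.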

How the data were processed

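The authors deposited raw read counts per gene symbol, 1 column for each of 3 libraries, matched here by title. Per the labels' protocols, TRIzol was used to extract total RNA, and libraries followed Illumina's procedure. Per the submitters' processing notes, STAR 2.6.1b and hg38 were used, with no role named; how genes were counted (program, annotation, strand setting, filters) is not given in the sources used here. Of 27587 rows, 13 had names turned into dates (0.0665%, 0.0707% and 0.0736% of counts) and were left out.

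CPM used effective library sizes from TMM (edgeR 4.0.16, R 4.3.3). Because the labels form 1 group, edgeR's quasi-likelihood test and DESeq2's test, which need a contrast, were not run. Levels were tested with limma-trend (limma 3.58.1): a two-sided one-sample test of log2 CPM (prior count 2) minus the library's median over detected genes, with Benjamini-Hochberg adjustment over 14612 detected genes and a threshold of 0.05. For paralog ratios an exact two-sided sign-flip test was used. A chi-square homogeneity test set the 3 counts against effective library sizes, with the same adjustment. The limma and chi-square tests were tested on simulated data. Intervals cover counting error only; without molecular identifiers, reads are not independent molecules. Exon lengths and positions came from GENCODE 29 (GRCh38); 92.5% of detected genes had a length.

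The members, lists, pairs and tests were chosen with earlier results of these data known. Named are the 10 genes, the 2 highest, the lowest detected and the undetected genes of each list, genes that overlap a member's exons and nearest genes; the members' other family genes, all from the lists, were added after their values were seen. Some genes covered by this rule were kept in all tests and counts but are not reported here. Alternatives were leaving out each library, 2 other filters, plain totals, size factors from DESeq2 1.42.0, limma-voom, a prior count of 0.5, a protein-coding reference, CPM per kb, a threshold of 0.01 and, chosen after seeing the data, the longest transcript as length.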

Additional observations from a re-analysis of the deposited data

How the results depend on the processing

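With any gene of at least 1 count kept, the reference gene fell to 5.13 CPM and all 10 genes entered the test. Of them 3 were called above and 7 below it, against 1 and 4. Over all 22026 genes of that run 48.1% were called above and 48.1% below, so such calls set no gene apart. SPRY1 (log2 distance 0.92) and SPRED1 (2.005) then lay above the reference gene. The 5 genes not detected otherwise lay from -5.05 (SPRY4) to -2.98 (ETV5), with adjusted p up to 4.74e-08 in limma's test. Without 1 library, 1 gene stayed above and 3 to 4 were called below. The shares over all genes tested in those runs were 44.7% to 46.2% above and 44.5% to 46.1% below. SPRED1 was not called in any of the runs without 1 library. The count of 4 below held only because another gene passed the filter and was called below. That gene was DUSP6 without replicate 1 and ETV5 without replicate 3. In the homogeneity test 1 to 4 genes were called. The pathway lists gave 43 to 46 genes above (45 with all libraries) and 23 to 27 below (23). DUSP4, PHLDA1 and SPRED2 kept direction and call under all 11 alternatives of the level test. Scaling by DESeq2 size factors or plain totals moved no such distance across the threshold, since each library is set against its own median.

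Without 1 library, the mean log2 ratio per kb ran from -2.45 to -1.73 for DUSP6/DUSP4, -4.93 to -4.17 for SPRY2/SPRY1, 2.14 to 2.48 for SPRY2/SPRY4, 6.31 to 7.12 for SPRY1/SPRY4, -1.84 to -1.69 for SPRED1/SPRED2 and -0.35 to 0.67 for ETV5/ETV4, the negative value being that without replicate 2. Ratios to SPRY4 hold 1 lower bound. On counts not divided by length, SPRY2/SPRY4 was 1.16 and SPRED1/SPRED2 -1.10, and with the longest coding transcript SPRED1/SPRED2 was -2.03, all by the change of length alone. No paired analysis was possible because the labels form 1 group. Depth limits DUSP6, SPRY2, SPRY4, ETV4 and ETV5, whose differences between libraries rest on at most 37 counts.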

Other observations

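Replicate 3 was the library with the lowest CPM for 6 of the 10 genes (DUSP4, SPRY1, SPRY2, SPRED2, ETV5 and PHLDA1) and the highest for none. Of the 10 other ERK output genes it was the lowest for 5 and the highest for none, among them FOS (21, 81 and 9 counts), IER3 (7, 18 and 1 counts) and EGR1 (30, 30 and 13 counts). Over all detected genes replicate 3 was the lowest for 33.3% and the highest for 32.5%. This pattern was noticed after the values were seen and was not tested. Several of these genes hold few counts. Replicate 3 had the fewest counts in total, 23868201 against 25013265 in replicate 1, and whether depth had a part was not tested.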
